A study of Mus musculus with 33 samples.

Results

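The comparison described here asked how the change in mouse lung gene expression at birth differed between delivery into room air and delivery into 10% oxygen. For each probe set, the change from fetal day 21 (F21) to 2 h after birth in air was set against the same change in 10% oxygen, and the difference of the changes (change in air minus change in 10% oxygen) was tested. It used 12 of the 33 arrays of the series, 3 in each of 4 groups. The whole series followed lung and liver around birth on the Affymetrix MGU74Av2 array, a chip that reads each transcript with short probes near its 3′ end.

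All samples were whole lungs of mice of the C57/BL background, which the labels also spell C57/Black and BL/57 and leave out for 1 of the F21 air lungs. The F21 air lungs came from fetuses of dams in room air on day 21 of gestation, and the 2 h air lungs came from pups born in room air (21% oxygen). The F21 lungs of the 10% oxygen arm came from fetuses whose dams had spent 12 h in 10% oxygen. The pups of that arm were born into 10% oxygen after their dams had been kept in it until delivery, for a time that is not given in the sources used here. The fetal reference therefore differed between the arms, and a difference of the changes can come from either end. The labels give each array as the lung of a mouse and do not name the litters, so the p-values measure the spread between these samples. In whole lung, fewer cells of a type and less RNA per cell cannot be told apart.

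Before birth the lung is filled with liquid, its blood vessels are constricted and its oxygen level is low. With the first breaths the liquid is absorbed, the surfactant of type 2 alveolar cells spreads over the new air surface, thin type 1 cells take up gas exchange and the oxygen tension in the airspaces rises. Cells respond to low oxygen through hypoxia-inducible factors, which switch on glycolysis and vascular growth factors, and to a sudden rise of oxygen through antioxidant and stress-response genes.

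The groups differed in array quality. The ratio of the 3′ to the 5′ Gapdh probe set, which rises as RNA is broken, lay between 0.824 and 1.03 in F21 air lungs and between 0.770 and 0.873 in 2 h air lungs. It was 1.21, 6.79 and 9.40 in the F21 lungs of the 10% arm and 3.01, 5.39 and 1.81 in its 2 h lungs. The 2 h air arrays stood apart in another way, with a BioB spike-in signal of 75.9 to 110.7 against 226.6 to 529.4 in the other 3 groups, and with a highest signal of 17961 to 19210 against 29773 to 57718. The median standard deviation of a probe set (log2) was 0.31 in F21 air, 0.28 in 2 h air, 0.40 in F21 10% oxygen and 0.41 in 2 h 10% oxygen. On replicate 2 of the F21 10% lungs the liver marker albumin was 2160, against 13.6 to 153.5 on the other 11 arrays. Of the other liver markers, Ahsg was 251.3 there against at most 31.1 elsewhere. Afp at 11.1 and Ttr at 58 lay within the range of the other arrays. The part of these features in the results was not tested. Values are given below from fits without single arrays, with the Gapdh ratio as a covariate, with array weights and with quantile normalization.

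**Figure D1:**
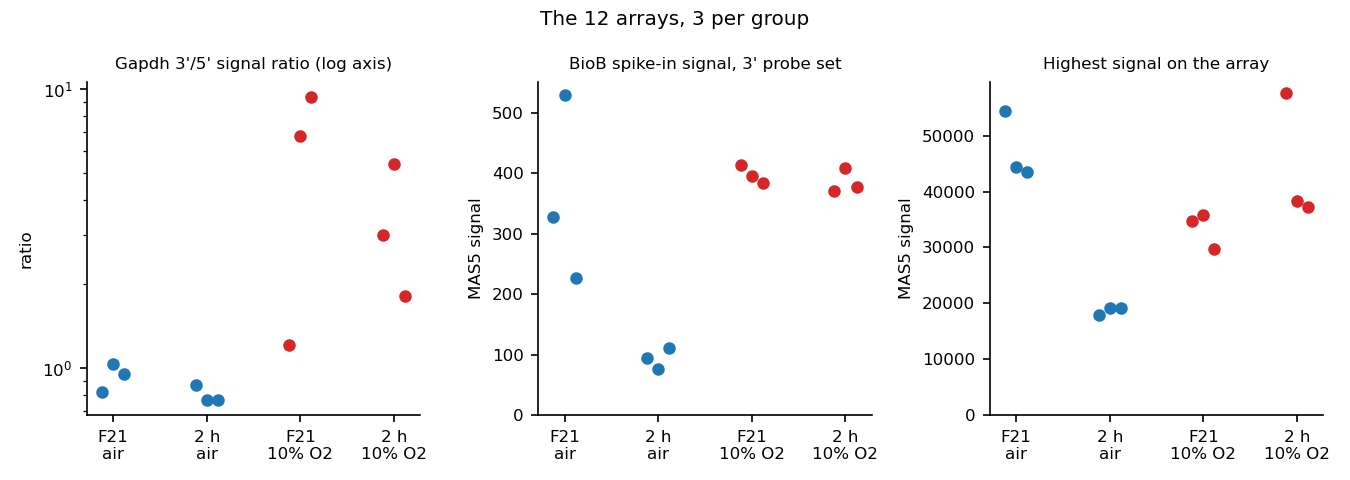
Gapdh 3′ to 5′ signal ratio (log axis), BioB spike-in signal and highest signal of each of the 12 arrays, 1 point per array, blue for air and red for 10% oxygen. All 6 air arrays have a Gapdh ratio of 1.03 or lower, all 6 arrays of the 10% arm have 1.21 or higher, and the 3 arrays at 2 h in air have the lowest spike-in and highest-signal values.

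The labelled tissue fitted its markers. Surfactant protein C (Sftpc, made by type 2 cells) had a signal of 17961 to 54367, and Ager, a type 1 cell receptor, of 1020 to 7803 over the 12 arrays. Of the red cell markers, the alpha globin Hba-a1 was as bright as Sftpc, at 14483 to 57718, while Alas2 was 146.2 to 768.7. The summed heart markers reached 1841 on a 2 h 10% array. Of 4 thymus markers, an _r_at probe set of the recombinase Rag1 was higher at 2 h in air, at 234 to 359 against at most 119 elsewhere, whereas Ptcra was 21.4 to 27 there against 36 to 52.2 in F21 air and Cd8a was under 10. The summed signal of 4 exocrine pancreas markers was 921 to 1175 at 2 h in air and at most 467 elsewhere. That sum was carried by the _r_at probe sets of Ctrl and Ctrb1, while Cela1 was 265 to 289 at 2 h in air against at most 230 elsewhere, and Prss2 was 9.2 to 13.3 against 31.6 to 82.6 at 2 h in 10% oxygen.

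Of 6237 probe sets tested, 14 differed in their change at birth (limma, Benjamini-Hochberg adjusted p under 0.05), or 0.224%. In 6 of them (0.0962%) the change was higher in air, and in 8 (0.128%) it was lower. The median difference over all probe sets was 0.0071 on the log2 scale, and the median standard error was 0.52, so that only large differences could pass. At an unadjusted p under 0.01, 250 probe sets differed. Of the 14, 9 have 1 gene symbol in the annotation, 3 have several and 2 are unnamed here. In 3 of the 14 the changes in the arms both passed and ran in opposite directions, in 10 only the change in air passed, and in 1 only that in 10% oxygen. Choosing probe sets by the difference of the changes favors opposite directions.

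The 3 genes whose changes passed in both arms in opposite directions were Emp2, Fdps and Igfbp6. Epithelial membrane protein 2 (Emp2, probe set 103243_at) is a tetraspan protein abundant in type 1 alveolar cells. Its signal in air was 1872, 2006 and 1321 at F21 and 696, 849 and 559 at 2 h, a fall of the log2 signal with no overlap (change −1.30 ± 0.22, SE, n = 3 and 3, limma adjusted p = 0.00543). In 10% oxygen it was 227, 220 and 283 at F21 and 597, 814 and 581 at 2 h, a rise (1.44 ± 0.22, limma adjusted p = 0.0054). The difference of the changes was −2.74 ± 0.31 (limma adjusted p = 0.00141), the smallest p of all probe sets. The arms were far apart in the fetus, where air exceeded 10% oxygen by 2.82 on the log2 scale (limma adjusted p = 8.85e-06), and close at 2 h, where the difference was 0.08 (limma adjusted p = 0.844). At 6 h, on arrays that the comparison did not use, the signals were 1420, 1367 and 946 in air and 530, 349 and 542 in 10% oxygen, so the arms did not overlap again.

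Farnesyl diphosphate synthase (Fdps, 99098_at) makes the branch-point intermediate of cholesterol and isoprenoid synthesis, and followed the same course. Its signal in air was 475, 403 and 501 at F21 and 169, 199 and 158 at 2 h (change −1.39 ± 0.25, limma adjusted p = 0.00651). In 10% oxygen it was 118, 129 and 80.5 at F21 and 236, 211 and 333 at 2 h (1.25 ± 0.25, limma adjusted p = 0.0177). Its difference of the changes was −2.65 ± 0.36 (limma adjusted p = 0.00475). As with Emp2, the larger gap between the arms was in the fetus, at 2.10 (limma adjusted p = 0.000515) against −0.55 at 2 h (limma adjusted p = 0.146). A dimmer probe set of Fdps (160424_f_at) had the same sign, with −1.53 ± 0.65, and did not pass (limma adjusted p = 0.333).

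Insulin-like growth factor binding protein 6 (Igfbp6, 103904_at) binds IGF-II and keeps it from its receptor. In air its signal was 1025, 871 and 862 at F21 and 474, 567 and 361 at 2 h (change −0.996 ± 0.19, limma adjusted p = 0.00868). In 10% oxygen it was 590, 621 and 523 at F21 and 1214, 1041 and 1080 at 2 h (0.94 ± 0.19, limma adjusted p = 0.0175). The difference of the changes was −1.94 ± 0.27 (limma adjusted p = 0.00475). Here the arms crossed: air was higher by 0.67 in the fetus (limma adjusted p = 0.0468), and at 2 h it was lower, with a difference of −1.27 (limma adjusted p = 0.00101). At 6 h the signals were 727, 802 and 820 in air and 890, 1766 and 1071 in 10% oxygen, again without overlap.

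**Figure D2:**
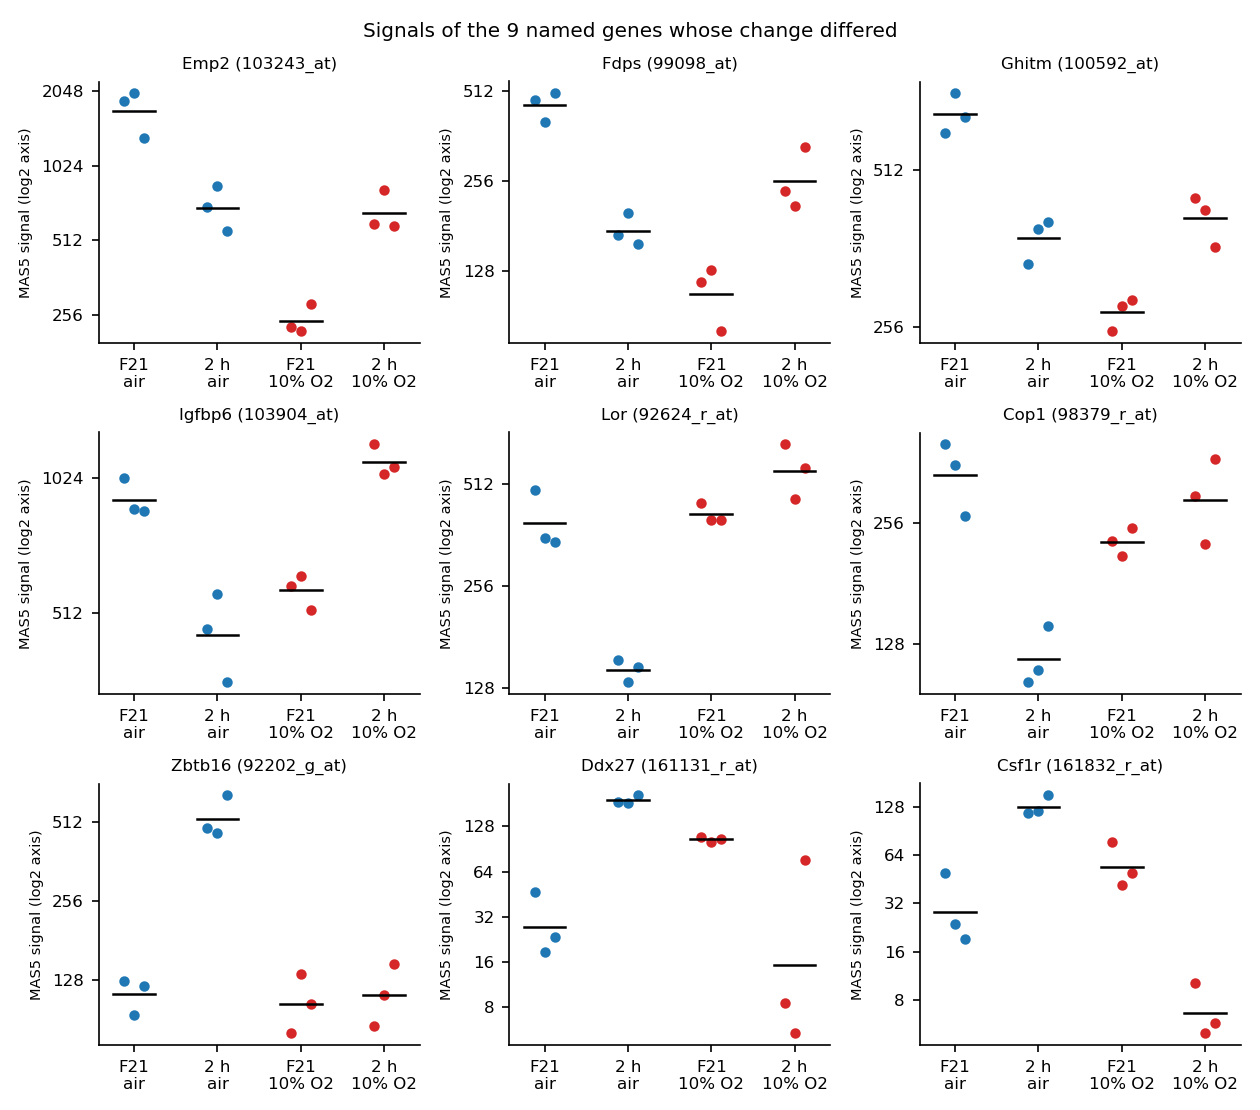
MAS5 signal (log2 axis) of the 9 named genes whose change differed, 1 panel per gene and 1 point per array, with the geometric mean of the 3 arrays of a group as a bar. In the top row and in Igfbp6, the F21 points of the air arm lie above those of the 10% arm, and in Lor, Cop1, Zbtb16, Ddx27 and Csf1r the 2 h air points stand apart from the other groups.

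Ghitm (100592_at), which encodes a membrane protein of the inner mitochondrial membrane, also had its larger gap in the fetus. Its signal in air fell from 602, 716 and 645 to 338, 394 and 406 (change −0.79 ± 0.18, limma adjusted p = 0.0221). In 10% oxygen it was 252, 281 and 288 at F21 and 452, 429 and 364 at 2 h, a change of 0.60 that did not pass (limma adjusted p = 0.105). The fetal groups differed by 1.26 and the 2 h groups by −0.13, and the difference of the changes was −1.38 ± 0.25 (limma adjusted p = 0.0345). A dim second probe set (160530_at) had the opposite sign, with 1.01 ± 0.51 (limma adjusted p = 0.412). Emp2, Fdps and Ghitm were the 3 of the 14 whose arms lay farther apart at F21 than at 2 h. In the other 11 the larger gap was at 2 h, which was so for 56.9% of all probe sets tested.

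Scd1, the desaturase that makes oleic acid, was not in this group by the test and was named after its values were seen. Its probe set 94057_g_at had signals of 687, 1067 and 514 in F21 air and 986, 962 and 1185 at 2 h in air. In the 10% arm they were 76.5, 98.9 and 27.9 at F21 and 342, 902 and 616 at 2 h. The fetal lungs of exposed dams were thus the low group, by 3.60 (limma adjusted p = 0.000515), and the difference of the changes was −2.74 ± 0.60 (limma adjusted p = 0.0902). The probe set that represents Scd1 in the gene lists, 94056_at, had a difference of −2.34 and did not pass. That value lay between −3.05 and −1.52 when 1 array was left out. Idi1 and Hmgcs1, which like Fdps are enzymes of cholesterol synthesis, were also named after their values were seen. Idi1 had a difference of −2.03 ± 0.80 (limma adjusted p = 0.306) and Hmgcs1 of −0.48 ± 0.47 (limma adjusted p = 0.701).

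Loricrin (Lor, 92624_r_at), a protein of the cornified layer of skin, and Cop1 (98379_r_at), a ubiquitin ligase, fell in air only by the test. Lor had signals of 495, 356 and 345 at F21 and 154, 133 and 147 at 2 h in air, and of 451, 401 and 403 at F21 and 673, 463 and 572 at 2 h in 10% oxygen. Its difference of the changes was −1.87 ± 0.30 (limma adjusted p = 0.015). Cop1 had signals of 402, 357 and 267 at F21 and 103, 110 and 142 at 2 h in air, and of 231, 212 and 250 at F21 and 300, 227 and 369 at 2 h in 10% oxygen. The difference for Cop1 was −1.87 ± 0.35 (limma adjusted p = 0.0347). In both, the 2 h air arrays lay below all other arrays. Both probe sets end in _r_at, which marks designs with relaxed probe rules, and another probe set of Cop1 (95437_at) had a difference of 0.65 ± 0.49 (limma adjusted p = 0.596).

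Zbtb16 (92202_g_at), a zinc finger repressor that glucocorticoids induce, rose in air and did not pass in 10% oxygen. Its signal went from 127, 93.5 and 121 to 489, 465 and 649 in air (change 2.23 ± 0.29, limma adjusted p = 0.000856), while in 10% oxygen it was 79.9, 135 and 103 at F21 and 85.3, 112 and 147 at 2 h (0.11 ± 0.29, limma adjusted p = 0.877). The 2 h air arrays were above all others, and the difference of the changes was 2.12 ± 0.41 (limma adjusted p = 0.0427). At 6 h the signals were 386, 181 and 250 in air and 183, 214 and 123 in 10% oxygen, so the arms overlapped there. The call is near the threshold, and it was lost under 6 of 10 other settings, among them quantile normalization and the Gapdh ratio as a covariate, with values of 1.98 to 2.15 under all 10.

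Ddx27 (161131_r_at), an RNA helicase of ribosome assembly, and Csf1r (161832_r_at), the macrophage receptor for colony-stimulating factor 1, had the largest differences of the 14, on dim probe sets. Ddx27 signals were 47.1, 18.7 and 23.4 at F21 and 185, 182 and 205 at 2 h in air, and 108, 101 and 105 at F21 and 8.6, 5.4 and 76.9 at 2 h in 10% oxygen (difference 5.20 ± 0.94, limma adjusted p = 0.0345). Csf1r signals were 49.5, 23.7 and 19.2 at F21 and 117, 119 and 150 at 2 h in air, and 76.7, 41.6 and 49.2 at F21 and 10.2, 5 and 5.8 at 2 h in 10% oxygen (difference 4.60 ± 0.85, limma adjusted p = 0.0345). Signals under 10 were set to 10 before the test, so both sizes depend on that floor. Other probe sets of these genes did not pass: 95540_r_at of Ddx27 had 1.88 ± 0.80 (limma adjusted p = 0.333), and 104354_at of Csf1r, whose 12 signals ran from 38 to 151.8, had 0.67 ± 0.65 (limma adjusted p = 0.691).

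The 5 probe sets without a single gene name had the 2 h air arrays apart from the others as well. The bright 161480_i_at fell in air from 2947, 2836 and 2575 to 1029, 813 and 1183, and had signals of 3147 to 3981 on the 6 arrays of the 10% arm (difference −1.67 ± 0.24, limma adjusted p = 0.00682). Of the others, 101684_r_at had a difference of −2.48 ± 0.45, and 160469_at, 94489_at and 101523_at had 2.75 ± 0.45, 1.80 ± 0.33 and 1.76 ± 0.31, with limma adjusted p values of 0.0205 to 0.0345.

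**Figure D3:**
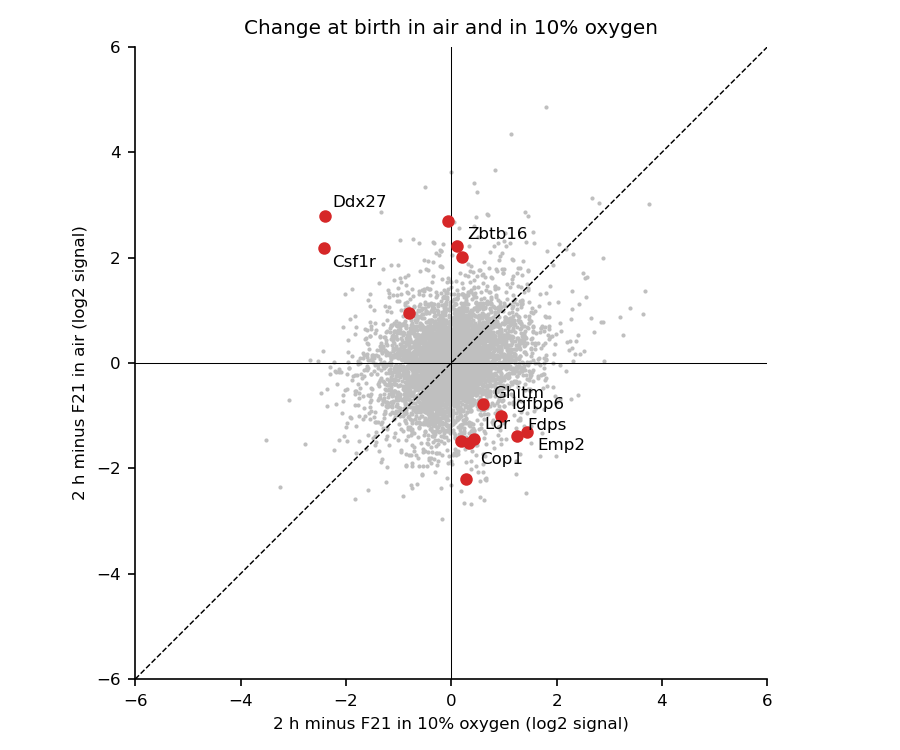
Change from F21 to 2 h in 10% oxygen (x axis, log2) against that in air (y axis, log2) for the 6237 probe sets (gray), with the 14 whose difference passed in red and the named ones labelled. The dashed line marks equal changes, and the 14 lie above it (6) or below it (8). For 12 of them the signs in the arms are opposite, which choosing by the difference favors.

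How many probe sets passed depended on single arrays. Without replicate 1 of F21 10% oxygen, the array of that group with the Gapdh ratio of 1.21, 34 passed. Without F21 air replicate 1, F21 10% replicate 2 or 2 h 10% replicate 1, 4 passed each, the same 4 each time: Emp2, Fdps, Igfbp6 and 161480_i_at. The count was 5 without 2 h air replicate 1 or 3, 6 without F21 air replicate 2 and 8 without F21 10% replicate 3. Those 4 passed in all 12 fits that left out 1 array, with Emp2 between −2.93 and −2.59, Fdps between −2.78 and −2.44 and Igfbp6 between −2.09 and −1.77. Lor passed in 9, and was lost without F21 air replicate 1 (−1.71), F21 10% replicate 2 (−1.84) or 2 h 10% replicate 1 (−1.74). Cop1 passed in 3, and Ghitm, Zbtb16, Ddx27 and Csf1r in 2 each, with differences that kept their sign in all 12: Cop1 −2.06 to −1.71, Ghitm −1.48 to −1.30, Zbtb16 1.92 to 2.31, Ddx27 4.71 to 6.18 and Csf1r 4.32 to 5.01.

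The sequences before the transcription start of Emp2 and Igfbp6, the genes of opposite courses with an entry in the RefSeq table used here (build GRCm38.p6), and of Klf4, the factor the study followed up, are shown so that the changes can be set beside the DNA they start from. They give the 250 bases upstream of the start, with matches to the motifs searched in capitals.
Emp2, chr16:10313969-10314218, minus strand: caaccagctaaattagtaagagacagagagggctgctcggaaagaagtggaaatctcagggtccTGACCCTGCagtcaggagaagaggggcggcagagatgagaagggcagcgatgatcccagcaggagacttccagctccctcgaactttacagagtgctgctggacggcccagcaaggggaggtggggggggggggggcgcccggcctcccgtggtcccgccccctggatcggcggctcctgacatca
Igfbp6, chr15:102143936-102144185, plus strand: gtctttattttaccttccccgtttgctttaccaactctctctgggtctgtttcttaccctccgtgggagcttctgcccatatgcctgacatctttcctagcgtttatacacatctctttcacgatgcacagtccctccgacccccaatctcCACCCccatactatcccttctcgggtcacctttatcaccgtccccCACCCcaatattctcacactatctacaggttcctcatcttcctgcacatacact
Klf4, chr4:55532476-55532725, minus strand: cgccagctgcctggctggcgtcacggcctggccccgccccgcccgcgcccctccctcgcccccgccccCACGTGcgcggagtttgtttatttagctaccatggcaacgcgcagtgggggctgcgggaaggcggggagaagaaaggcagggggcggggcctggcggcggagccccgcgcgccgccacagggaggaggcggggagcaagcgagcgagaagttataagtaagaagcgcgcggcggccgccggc
The motifs, searched on both strands, were the cyclic AMP response element TGACGTCA, the AP-1 site TGANTCA, the hypoxia response core ACGTG, the antioxidant response element TGACNNNGC, the heat shock element GAANNTTC and the Kruppel-like factor box CACCC. Emp2 held 1 antioxidant response match, Igfbp6 held 2 CACCC boxes, and Klf4 held the hypoxia core at 1 place on both strands. Of the 9 named genes that passed, Csf1r, Fdps and Zbtb16 have no entry in the RefSeq table used here. Among the other 6 the antioxidant motif was in 1 (10.2% of all 32851 promoters) and the hypoxia core in 1 (16.6%). AP-1 was in 1 (6.75%), CACCC in 3 (52%) and the other motifs in none (1.55% and 6.69%). A match is a run of letters and does not show that a factor binds.

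Klf4, a zinc finger factor of epithelial and fibroblast differentiation, was the gene the study pursued from its rise in air. Its signal was 77, 97 and 90.2 at F21 and 490, 480 and 492 at 2 h in air (99622_at, change 2.47 ± 0.47, limma adjusted p = 0.00873). In 10% oxygen it was 42.5, 157 and 121 at F21 and 229, 340 and 87.6 at 2 h (1.03 ± 0.47, limma adjusted p = 0.281), so the groups overlapped there. The difference of the changes was 1.45 ± 0.66 and did not pass (limma adjusted p = 0.37). It lay between 0.89 (without 2 h 10% replicate 3) and 2.01 when any 1 array was left out. At 6 h the signals were 371, 321 and 231 in air and 198, 297 and 421 in 10% oxygen.

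The other genes the study followed up did not pass either. Cdkn1a, the p21 inhibitor of cyclin-dependent kinases, rose in both arms (94881_at, by 1.50 and 1.44, limma adjusted p = 0.012 and 0.0227), with a difference of 0.06 ± 0.43, whose sign flipped under other settings. The integrin subunit Itgb1, which the study used as a negative control that Klf4 did not induce, came nearest. Its probe set 100124_r_at had signals of 232, 239 and 197 at F21 and 456, 498 and 483 at 2 h in air, against 142, 241 and 262 and then 153, 153 and 165 in 10% oxygen (1.52 ± 0.34, limma adjusted p = 0.0974). The brighter 100123_f_at of Itgb1 had 0.74 ± 0.41 (limma adjusted p = 0.455). For the matrix genes, tenascin C (Tnc) had 0.88 ± 0.49, smooth muscle actin (Acta2) 0.58 ± 0.50, fibronectin (Fn1) −0.23 ± 0.26, and the probe sets of collagen Col1a1 −0.02 ± 0.30 (103709_at) and 0.73 ± 0.36 (94305_at), with limma adjusted p values of 0.409 to 0.986.

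By the rule for genes near the threshold, the other named genes with higher change in air were Nr2f2, a nuclear receptor of vein and atrial identity (2.35 ± 0.48, limma adjusted p = 0.0703), Notch1 (2.86 ± 0.65, limma adjusted p = 0.11), Shroom3, an actin-binding regulator of epithelial shape (1.84 ± 0.42, limma adjusted p = 0.11), and the kinase Pim2 (3.32 ± 0.78, limma adjusted p = 0.118). Nr2f2 had signals of 88.4, 47.9 and 65.5 and then 195, 229 and 235 in air, and of 61.6, 84.3 and 85.8 and then 40.7, 54.9 and 57.3 in 10% oxygen. The second probe set of Notch1 (97497_at), which was brighter, had −0.34 ± 0.40 (limma adjusted p = 0.745). On the lower side were Tax1bp1, an autophagy receptor (−1.69 ± 0.33, limma adjusted p = 0.0529), whose brighter probe set 96874_g_at had 0.04 ± 0.32, and 1110032A03Rik (−3.09 ± 0.62, limma adjusted p = 0.0615).

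Arm by arm, in air 93 probe sets rose (1.49%) and 182 fell (2.92%), and in 10% oxygen 73 rose (1.17%) and 71 fell (1.14%). The arrays of the 10% arm varied more, and leaving out 1 array moved the totals between 100 and 305 in air and between 53 and 229 in 10% oxygen, while array weights gave 1028 and 35. The air arm did not have the larger total in every fit: it had 100 against 140 without F21 air replicate 3, 116 against 116 without 2 h air replicate 3 and 135 against 138 with no filter. The arms share no arrays, so the probe sets chosen by one can be read in the other. The 93 that rose in air had a median change of 1.50 there, a size that the choice favors, and of 0.47 in 10% oxygen. Of these, 71 had a positive change in 10% oxygen and 14 also rose there. Over all probe sets tested, the median change was −0.022 in 10% oxygen and 0.018 in air. The 182 that fell in air had medians of −1.14 in air and −0.30 in 10% oxygen, where 142 had a negative change, 19 fell and 3 rose.

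The reverse choice gave a like picture. The 73 probe sets that rose in 10% oxygen had a median of 1.56 there and 0.59 in air, where 60 had a positive change, 14 rose and 3 fell. The 71 that fell in 10% oxygen had medians of −1.44 there and −0.60 in air, where 59 had a negative change and 19 fell. Changes were thus smaller in the arm that had not chosen the probe sets, whichever arm that was. Of the 275 probe sets that passed in air, 13 also passed the test of the difference, against 0.224% of all probe sets tested. That test uses the same air arrays, so the choice favors a larger share.

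**Figure D4:**
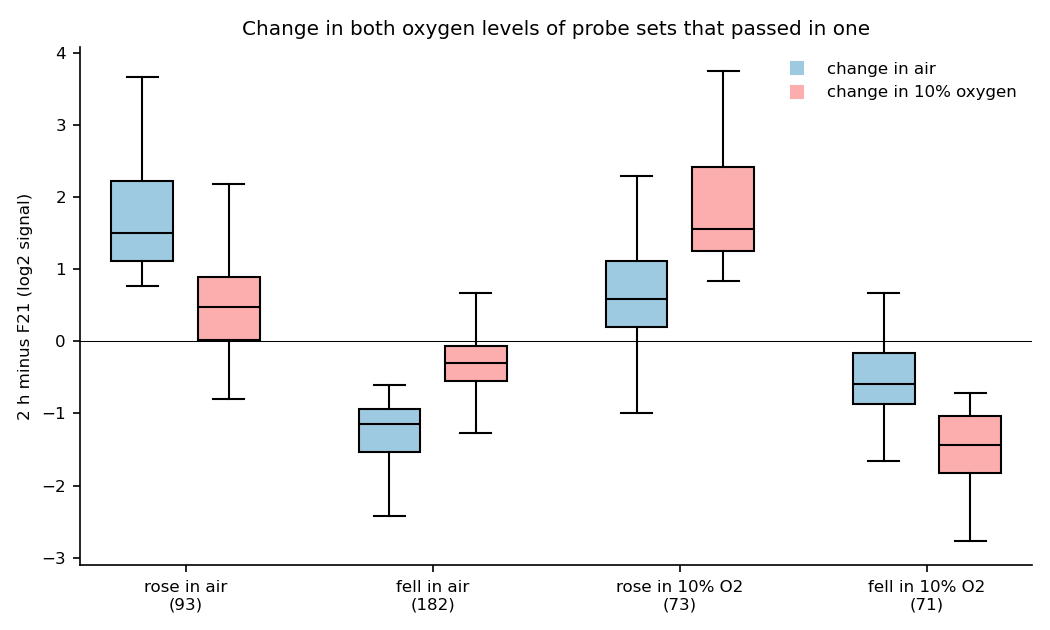
Change from F21 to 2 h (log2) in air (blue) and in 10% oxygen (pink) of the probe sets that rose or fell in one of the arms, with their number below. Boxes span the quartiles with the median as a line, whiskers reach the farthest values that the plotting library does not treat as outliers, which are not drawn. Medians in the arm not used for the choice were 0.47, −0.30, 0.59 and −0.60.

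The arms also differed at each end. At F21, 395 probe sets differed between the fetal groups (6.33%), 241 of them higher in air and 154 lower. At 2 h, 1033 differed (16.6%), 526 higher and 507 lower in air. The groups compared here also differed in the array features named above, and the part of those features in these counts was not tested.

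In 26 gene lists, 1 probe set per gene, 4 list genes passed the test of the difference: Emp2 among alveolar type 1 and airway genes, Igfbp6 among growth factor genes, Lor among cartilage, squamous and digestive gland genes, and Zbtb16 among glucocorticoid and circadian genes, with none in the other 22 lists. The lists are therefore given by their medians, against 0.0071 over all probe sets, and by the number of members at an unadjusted p under 0.05, against 5.95% of all probe sets on the higher and 7.26% on the lower side.

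The list of alveolar type 1 and airway genes had the lowest median. Of its 19 genes the median difference was −0.73, and 5 were lower and 1 higher at an unadjusted p under 0.05. Next to Emp2 these were led by Rsph1, a cilium protein (−0.82 ± 0.24), Ager (−1.92 ± 0.60) and the water channel Aqp1 (−1.33 ± 0.50). Ager had signals of 5357, 5156 and 4086 and then 3410, 3986 and 2856 in air, and of 5579, 2702 and 1020 and then 7719, 4741 and 7803 in 10% oxygen. The type 1 cell genes Cav1 and Igfbp2 had the opposite sign, with differences of 0.643 and 0.805. The low Ager values were on the F21 10% arrays with Gapdh ratios of 6.79 and 9.40. Without the latter array the difference was −1.28 for Ager and −0.77 for Aqp1. The list median moved to −0.14 without 2 h air replicate 3, to −0.46 without F21 air replicate 3, to −0.21 without F21 10% replicate 3 and to −0.29 without 2 h 10% replicate 2, and stayed negative in all fits run.

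Of 30 type 2 cell and surfactant lipid genes, 8 were lower and none was higher at an unadjusted p under 0.05, with a median of −0.41. The leading members were Sftpc (−1.67 ± 0.36), the sterol carrier Npc2 (−1.60 ± 0.35), fatty acid synthase (Fasn, −1.36 ± 0.36) and the chitinase-like Chil1 (−1.79 ± 0.51), with limma adjusted p values of 0.0902 to 0.193. Sftpc, an abundant transcript of lung, had signals of 54367, 44418 and 43575 and then 17961, 19130 and 19210 in air, and of 34741, 35796 and 20943 and then 40889, 34919 and 36521 in 10% oxygen. Its difference reversed to 0.09 under quantile normalization, which gives the brightest probe sets of every array the same values. Chil1 was lowest in the fetal 10% lungs, at 39.1, 63.7 and 34.1 against 282, 217 and 326 in F21 air, and was 427, 795 and 353 in air and 340, 362 and 171 in 10% oxygen at 2 h. The median of the list lay between −0.60 and −0.22 when 1 array was left out, the latter without F21 10% replicate 3.

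Ribosomal protein genes were lower as well, with a median of −0.62 over 23 genes, 9 of them at an unadjusted p under 0.05 and none higher. In air 10 of them fell at birth and in 10% oxygen 1 fell. Rpl19 had signals of 5837, 6969 and 7261 and then 3463, 3571 and 2774 in air, and of 8088, 7101 and 6402 and then 7298, 6157 and 6269 in 10% oxygen (−0.91 ± 0.26, limma adjusted p = 0.197). These genes are bright, and the 624 brightest probe sets had a median difference of −0.23, next to the lower top signals of the 2 h air arrays. Under quantile normalization the list median was −0.19, and the difference of Rpl41 reversed from −0.86 to 0.42. Without F21 10% replicate 2 the median was −0.32, and without 2 h 10% replicate 1 it was −0.34. The 53 subunits of oxidative phosphorylation had a median of −0.14, with 7 lower and 1 higher at an unadjusted p under 0.05, led by Uqcrq of complex III (−1.03 ± 0.24). That median lay between −0.29 (without F21 air replicate 1) and −0.13 (without 2 h 10% replicate 1).

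Red cell genes had a median of −0.38 over 17 genes, with 3 lower and 1 higher. The alpha globin Hba-a1 had signals of 33730, 36230 and 30854 and then 15420, 14483 and 18826 in air, and of 33456, 30523 and 22503 and then 57718, 38266 and 37316 in 10% oxygen (−1.67 ± 0.36, limma adjusted p = 0.0902). Under quantile normalization that difference was −0.26 (limma adjusted p = 0.632). The embryonic globin Hbb-y (97180_f_at) had the largest difference of the list, of the opposite sign (2.57 ± 1.06, limma adjusted p = 0.323). The median of the list moved to −0.68 without F21 10% replicate 2, to −0.62 without 2 h 10% replicate 2, to −0.23 without 2 h air replicate 3 and to −0.88 when only the brightest 30% of probe sets were kept.

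Cell cycle genes lay on the higher side, with a median of 0.45 over 45 genes, 7 of them higher and none lower at an unadjusted p under 0.05. Their medians were −0.58 in air and −0.86 in 10% oxygen, and 4 fell in air and 10 in 10% oxygen. Kif23, a kinesin of cell division, had signals of 73.8, 77.2 and 61.3 and then 81.3, 63.6 and 90.4 in air, and of 188, 243 and 370 and then 49.1, 98.3 and 69.7 in 10% oxygen (2.02 ± 0.50, limma adjusted p = 0.123). The fetal lungs of exposed dams were the high group for Kif23. The nucleotide reductase subunit Rrm2 had 2.39 ± 0.85, the cyclin Ccnb2 1.04 ± 0.37 and Cdk4 0.70 ± 0.24. The median was 0.74 without 2 h air replicate 2 and 0.68 with array weights. It was 0.36 without 2 h air replicate 1 and 0.36 with a pseudocount of 16.

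The 40 immediate early genes, which respond to stimuli without new protein synthesis, had a median difference of 0.03 that took either sign under other settings. Their birth changes had medians of 0.77 in air and 0.79 in 10% oxygen, and 14 rose in air and 9 in 10% oxygen. At an unadjusted p under 0.05 the list held 6 genes on the higher side and 2 on the lower. The nuclear receptor Nr4a1 had signals of 17.6, 13.2 and 47.6 and then 329, 461 and 147 in air, and of 131, 109 and 149 and then 223, 354 and 153 in 10% oxygen (2.82 ± 0.69, limma adjusted p = 0.123). Nr4a1 was thus similar at 2 h and differed in the fetus. The clock gene Per1 had 1.40 ± 0.37, the RNA-binding Zfp36l1 1.34 ± 0.45 and the NF-kappaB inhibitor Nfkbia (101554_at) −0.91 ± 0.31, whose other probe set (104149_at) had 0.90 ± 0.41.

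The 10 Kruppel-like factors had a median of 0.39, with 3 higher and none lower (Klf4, Klf13 and Klf10), and 3 rose in air and none in 10% oxygen. The largest member by size ran the other way: Klf2, a factor of endothelial flow response, had signals of 16, 13 and 14.7 and then 20.6, 161.7 and 15.5 in air, and of 12.3, 141.9 and 9.6 and then 382, 420 and 229 in 10% oxygen (−2.32 ± 1.35, limma adjusted p = 0.481). The median of the list moved to 0.14 without F21 10% replicate 3, to 0.76 without F21 10% replicate 1 and to 0.66 among the brightest 30%. The 21 glucocorticoid and circadian genes had a median of 0.37, with 5 higher and 1 lower. The lower one was Tef, a clock output factor, with signals of 489, 378 and 567 and then 118, 188 and 30.8 in air, and of 317, 334 and 391 and then 306, 412 and 482 in 10% oxygen (−2.61 ± 0.65, limma adjusted p = 0.123). Without 2 h 10% replicate 3 that median was 0.14, and without F21 10% replicate 1 it was 0.56.

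Hypoxia-inducible and glycolysis genes had a median of 0.35 over 38 genes, with 3 higher and none lower. Pfkfb3, which drives glycolytic flux, had signals of 60.3, 61 and 28.2 and then 145.7, 106.4 and 124.3 in air, and of 57.1, 59 and 85.7 and then 40.9, 11.8 and 11.9 in 10% oxygen (3.29 ± 0.80, limma adjusted p = 0.123). The glycolytic enzyme Pgam1 had 1.56 ± 0.50 and the stress gene Ddit4 1.12 ± 0.51. The vascular growth factor Vegfa, named after its values were seen, had −0.79 ± 0.56 (limma adjusted p = 0.565). The median of the list was 0.21 without F21 10% replicate 3 and 0.56 without F21 10% replicate 1. Of 38 antioxidant genes 4 lay on each side at that p, with a median of 0.13. The heme repressor Bach1 had 1.58 ± 0.53, whereas glutathione peroxidase Gpx3 had −1.39 ± 0.38 and glutaredoxin Glrx −1.92 ± 0.56.

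The structural lists held members on both sides at an unadjusted p under 0.05. The 54 collagen and matrix genes had a median of 0.13, with 3 higher and 1 lower. Col15a1, a basement membrane collagen, had signals of 69.8, 69.9 and 63 and then 95.8, 43.8 and 62.4 in air, and of 212, 264 and 358 and then 68.7, 61.6 and 40.1 in 10% oxygen (2.22 ± 0.52, limma adjusted p = 0.118). Elastin (Eln) had −0.82 ± 0.29, with signals of 9258, 11432 and 8319 and then 9128, 8569 and 9089 in air, and of 11447, 15627 and 12806 and then 19947, 22372 and 22824 in 10% oxygen, and −0.24 under quantile normalization. Among 34 endothelial and vasoactive genes 3 were higher and 4 lower (median −0.18), with the receptor Acvrl1 at −1.18 ± 0.30 (100450_r_at), whose other probe sets had −0.41 and 0.07. The remaining lists had medians from −0.36 (cartilage, squamous and digestive gland genes) to 0.32 (p53 targets and apoptosis genes). With 1 array left out, the former lay between −0.63 (without F21 10% replicate 1) and −0.03 (without F21 air replicate 3) and the latter between 0.10 (without F21 air replicate 3) and 0.28, with 0.013 among the brightest 30%. The medians of the liver, lymphocyte, macrophage, heart, antioxidant, actin and growth factor lists changed sign when 1 array was left out. In the list of digestive gland genes the pancreatic enzyme Ctrl went from 12.1, 7.6 and 10.2 to 275, 358 and 307 in air. In 10% oxygen it went from 15.6, 8.9 and 7.9 to 11.3, 52 and 111. Its difference of the changes was 3.07 ± 1.08 (limma adjusted p = 0.261). These Ctrl signals are part of the pancreas marker sum given above and add no separate observation, and Ctrb1 had a difference of −0.069.

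**Figure D5:**
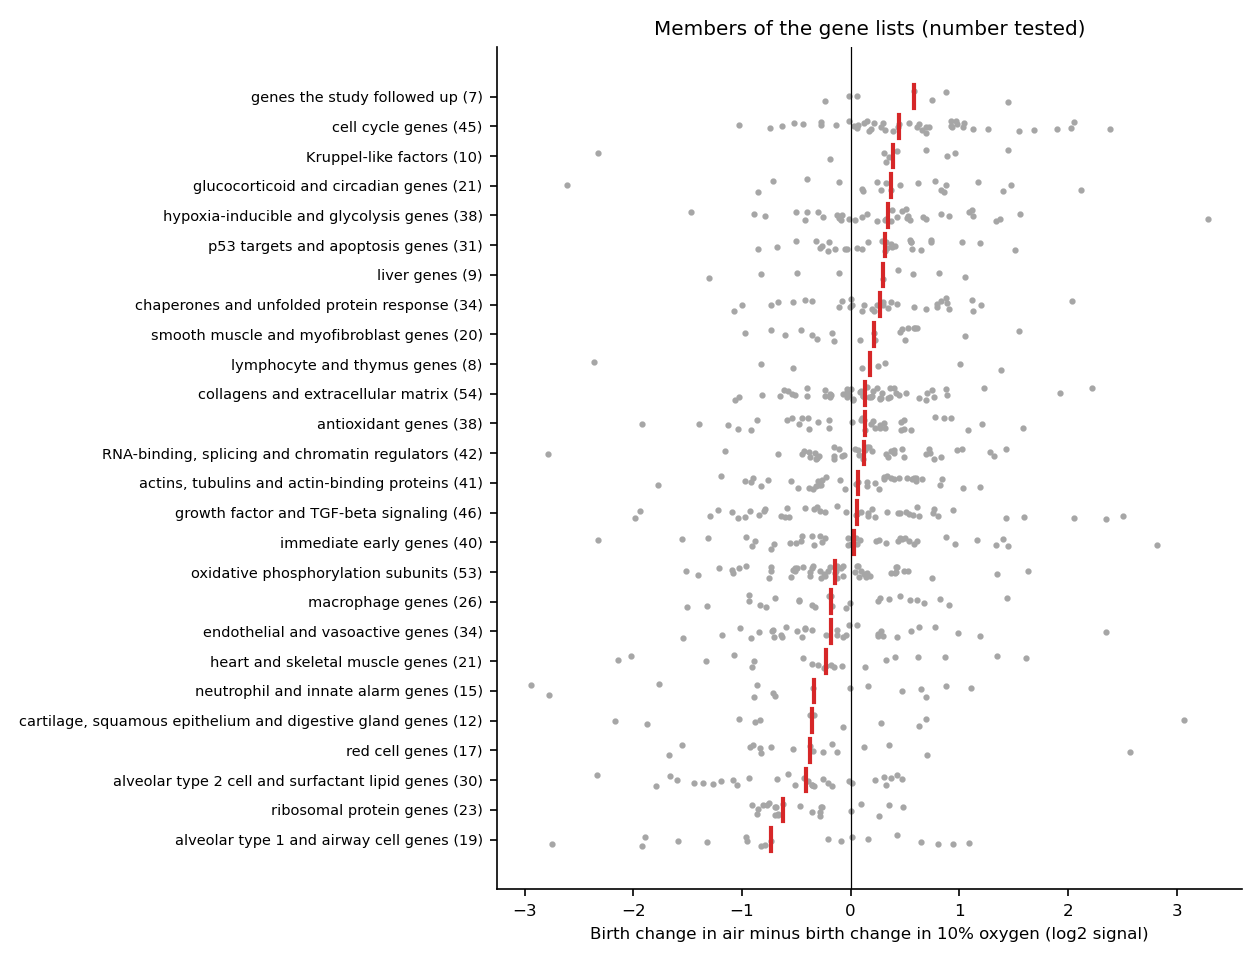
Difference of the birth changes (air minus 10% oxygen, log2) of the tested members of 26 gene lists, 1 gray point per gene and the list median as a red line, ordered by median, with the number tested. Medians run from −0.73 for alveolar type 1 and airway genes to 0.58 for the 7 genes the study followed up, which include Klf4 and the study's negative control Itgb1.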

How the data were processed

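Whole-lung RNA was hybridized to Affymetrix MGU74Av2 arrays, and the authors computed MAS5 signals, deposited as a linear intensity per probe set and array. The authors scaled each chip to a common target intensity and, for their own tests, kept genes by the MAS5 detection p-value, a filter not used here. The 66 control probe sets were dropped, and log2 was taken of each signal after raising it to at least 10. Probe sets in the top 40% of at least 3 of the 12 arrays were kept (6237 of 12422). The 4 groups were fitted with limma 3.58.1 in R 4.3.3 (lmFit, eBayes with a variance trend, 8 residual degrees of freedom), and p-values were adjusted by Benjamini-Hochberg over all probe sets tested. The fit was run on simulated data with added differences and the same spread in all 4 groups. The 10% arm varied more in the real arrays, so that run does not show how the fit handles unequal spread. Genes were named from the platform annotation, in which 10855 probe sets had 1 symbol, 396 several and 1237 none or no entry. Named were all that passed, up to 8 per direction by smallest p where fewer passed, the genes the study followed up and up to 4 members of each list. Scd1, Idi1, Hmgcs1 and Vegfa fall outside this rule and were named after their values were seen. A list gene was represented by its brightest probe set. The members and lists were chosen with earlier results of these data known. Array number limits the precision.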

Additional observations from a re-analysis of the deposited data

Results flagged for a closer look

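The 14 probe sets whose birth change differed between air and 10% oxygen by the test of the difference itself (limma, log2, air minus 10% oxygen) were Emp2 (−2.74), Fdps (−2.65), Igfbp6 (−1.94), Lor (−1.87), Cop1 (−1.87), Ghitm (−1.38), Zbtb16 (2.12), Csf1r (4.60), Ddx27 (5.20) and the probe sets 161480_i_at (−1.67), 101684_r_at (−2.48), 160469_at (2.75), 94489_at (1.80) and 101523_at (1.76). Groups of 3 arrays are too small for a test of single outlying samples.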

How the results depend on the processing

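The count of 14 was 14 with a floor of 1 and with the Gapdh ratio as a covariate, and lay between 11 and 20 with a pseudocount of 16, quantile normalization, the brightest 30%, array weights or no variance trend. It was 33 with all 24 lung arrays in the fit, 9 with no filter, 7 with a replicate block, 250 at an unadjusted p under 0.01, and 4 to 34 when 1 array was left out. Of the 14, 12 passed with all lung arrays, 7 with no filter, 7 with the replicate block and 5 with no variance trend. Arrays of the same number were treated as unpaired in the main fit. The correlation of their deviations was −0.14 to 0.05 over 18 pairs, which cannot show whether samples shared a litter. Signs reversed for Sftpc (0.085) and Rpl41 (0.42) under quantile normalization, for Cdkn1a with array weights (94881_at, −0.0598) and the Gapdh covariate (98067_at, −0.0598), and for Col1a1 (103709_at) under quantile normalization (0.13) and array weights (0.081). Leaving out 1 array gave −0.23 to 0.29 for Cdkn1a 94881_at, −0.39 to 0.94 for 98067_at and −0.16 to 0.15 for Col1a1 103709_at. The causes were not tested. With 3 arrays per group and a median standard error of 0.52, only large differences could pass. The smallest of the 14 was −1.38 (Ghitm), on a probe set with a standard error below that median. A difference that did not pass does not show that the arms were alike.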
